A study of Mus musculus with 9 samples.

Results

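The EGF-family growth factors and their receptor were followed across 9 arrays of mouse 3T3 fibroblasts, an established line of embryonic fibroblasts. The set was given as 9 genes: the ligands Ereg (epiregulin), Areg (amphiregulin), Hbegf (heparin-binding EGF-like growth factor), Tgfa (transforming growth factor-α), Btc (betacellulin), Epgn (epigen) and Egf itself, the neuregulin Nrg1, and the receptor gene Egfr. A gene was read from the probe set annotated to its symbol alone. By that rule 8 of the 9 genes were measured, each on 1 probe set, out of 19938 genes with such a probe set. Areg was not analysed here.

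The Trap-80 knock-down cells were 3T3 fibroblasts given 5 ng/ml TNF-α for 1 h, and every knock-down value below comes from cells so treated. Trap-80, encoded by Med17, is a subunit of Mediator, the complex that links transcription factors to RNA polymerase II, and it was depleted with a hairpin RNA. The treated wild-type cells received the same dose for the same time, and the resting wild-type cells received none. Each group held 3 replicates, described in the methods as independent samples. According to the study's text, knock-down lines were clonal and made with either of a pair of hairpins. That text ties a single hairpin, kept as a single clone, to its principal experiments. The array labels name neither hairpin nor clone. Wild type stands in the study's text for control cells carrying an unrelated hairpin, whereas the array labels say only wild type. Knock-down cells at rest were not analysed here. A difference that the lines had before TNF-α therefore cannot be told apart from one in their response to it. If the knock-down arrays came from 1 clone, a difference peculiar to that clone cannot be told apart from an effect of Trap-80 loss.

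EGF-family ligands are made as membrane-anchored precursors. ADAM proteases, chiefly ADAM17 and ADAM10, cut them free, and the released peptide binds EGFR or one of its ErbB relatives on the same or a neighbouring cell. The occupied receptor signals through RAS, RAF, MEK and ERK and through PI3K and AKT, and ERK in turn switches on transcription factor genes together with inhibitors that close the loop, among them Sprouty proteins and dual-specificity phosphatases. In fibroblasts the pathway is a classical driver of proliferation and wound responses, and several ligand genes are themselves inducible by inflammatory and growth signals.

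Ereg lies in a run of ligand genes on mouse chromosome 5, in the order Epgn, Ereg, Areg, Btc. Promoter windows of 250 bases before to 50 bases after the start site, from RefSeq (GRCm38.p6), were at hand for 6 of the 9 genes. The windows of the measured genes on either side of Ereg are shown because these genes flank Ereg, the member with the largest TNF-α difference, and gave no call in any comparison below; capitals mark a TATA match (TATAAA).
Epgn, chr5:91027267-91027566, plus strand: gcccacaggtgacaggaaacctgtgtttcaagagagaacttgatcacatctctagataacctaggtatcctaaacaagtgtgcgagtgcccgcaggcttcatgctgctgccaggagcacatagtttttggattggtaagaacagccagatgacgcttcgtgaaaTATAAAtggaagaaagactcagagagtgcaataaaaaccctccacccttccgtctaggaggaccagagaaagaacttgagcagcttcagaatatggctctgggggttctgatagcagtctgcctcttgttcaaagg
Btc, chr5:91402945-91403244, minus strand: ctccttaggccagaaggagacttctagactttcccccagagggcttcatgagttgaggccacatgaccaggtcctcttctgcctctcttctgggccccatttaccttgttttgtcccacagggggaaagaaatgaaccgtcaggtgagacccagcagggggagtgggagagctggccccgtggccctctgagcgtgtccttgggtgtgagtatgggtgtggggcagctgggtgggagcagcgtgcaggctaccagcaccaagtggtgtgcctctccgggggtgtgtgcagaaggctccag
The Epgn window held 1 TATA match, 86 bases before the start site, and the Btc window held none of the 4 motifs searched on both strands. These were the κB motif, found in 4.51% of 32851 RefSeq windows of the same length, the AP-1 motif (TGANTCA, 7.81%), TATA (13.6%) and the GC box (GGGCGG, 35.7%). None of the 6 genes' windows matched the κB or AP-1 letters. No window was at hand for Ereg, Hbegf or Nrg1, so these genes were not searched. GC-box matches stood in the windows of Tgfa (2), Egfr (1) and the unmeasured Areg (2), and Areg also had a TATA match 31 bases before its start. Such matches describe the letters of these windows and are not binding sites.

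Signals are log2 values, so a difference of 1 is a 2-fold change. The knock-down was visible on every array. The Med17 signal was 6.35, 6.22 and 6.17 in knock-down cells, against 7.98, 7.93 and 7.77 in treated and 8.10, 8.09 and 7.89 in resting wild-type cells. This left 32.1% of the treated wild-type signal (limma adjusted p = 4.77e-05; exact two-sided permutation p = 0.1, the smallest that 3 arrays against 3 allow). Array medians ranged from 4.95 to 5.09, and arrays of a group correlated with each other at r = 0.993 to 0.997. All 7 fibroblast markers examined stood above the 95th percentile of olfactory receptor genes (3.89) in every group, whereas 0 of 3 endothelial, 1 or 2 of 5 leukocyte and 3 or 4 of 6 epithelial markers did. Mean levels per array over the fibroblast list were 10.14 to 10.42 in knock-down, 10.17 to 10.45 in treated wild-type and 10.16 to 10.52 in resting wild-type cells. Over the epithelial list they were 4.16 to 4.35 in knock-down, 4.26 to 4.37 in treated wild-type and 4.09 to 4.23 in resting wild-type cells, and here the treated and resting wild-type arrays did not overlap. In the other lists the groups overlapped: the leukocyte list gave 3.62 to 3.71 in knock-down and 3.69 to 3.72 in both treated and resting wild-type cells, and the endothelial list 3.40 to 3.44 in knock-down, 3.35 to 3.51 in treated wild-type and 3.15 to 3.52 in resting wild-type cells. Among the fibroblast markers, Pdgfra was lower (difference -1.89, adjusted p = 9.52e-05) and Thy1 higher (2.09, adjusted p = 0.000479) in knock-down than in treated wild-type cells, and the part of these markers in the results below was not tested. In such bulk RNA, fewer cells of a type and less RNA per cell cannot be told apart.

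Hbegf was the member whose level differed past the threshold, with its highest values in knock-down cells. Ereg had its highest values in treated wild-type cells and passed in no comparison of the fit of all arrays. All 9 arrays were fitted together with limma, with Benjamini-Hochberg adjustment across the 23410 named probe sets and a threshold of 0.05. Between knock-down and treated wild-type cells, 1 of the 8 measured genes was called (Hbegf, higher), beside 5.96% of all probe sets called, 3.36% higher and 2.6% lower. Of those calls 56.3% were higher, or 68% when each array was centred on its median, and a block by replicate number made 2108 calls in place of 1395. Between knock-down and resting wild-type cells it was again Hbegf, 1 of 8, beside 8.25% called (3.64% higher, 4.62% lower). Between treated and resting wild-type cells, limma called 0 of 8, with 1 (Ereg) at an unadjusted p under 0.05, beside 0.115% of all probe sets called (0.111% higher, 0.00427% lower) and 7.1% under that unadjusted p. The block made 55 calls there in place of 27, with 0 of 8 members among them. At an unadjusted p under 0.05 stood 4 of the 8 in the first of these comparisons (Hbegf, and with negative differences Ereg, Egf and Nrg1) and 3 in the second (Hbegf, Ereg and Tgfa), beside 17.4% and 20.5% of all probe sets. The comparisons share arrays with each other, and the p-values measure the spread among these cultures.

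**Figure D1:**
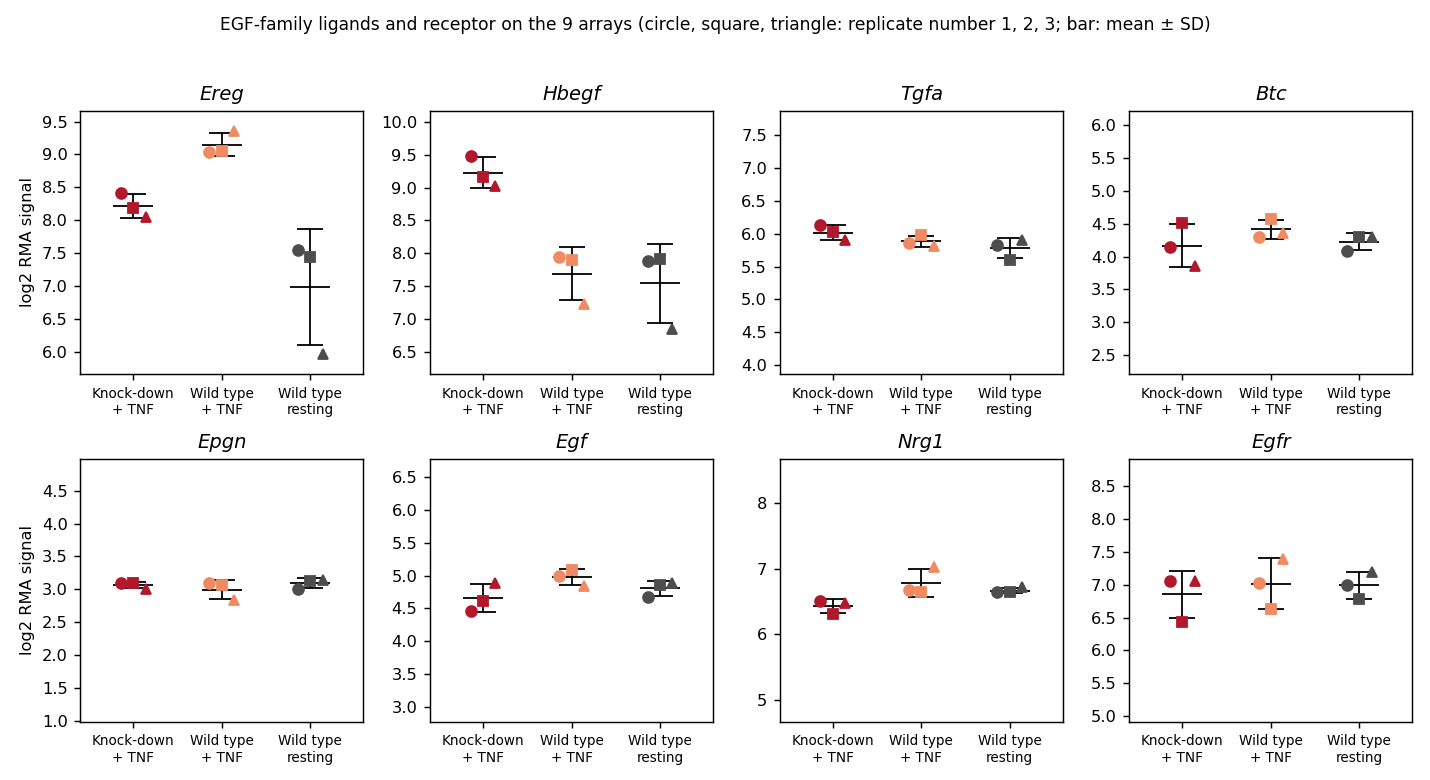
Signal of the 8 measured genes on each array (vertical axis, log2 RMA signal; every panel spans 4 log2 units). Columns are knock-down, treated wild-type and resting wild-type cells, symbols give the replicate number, and bars give mean ± SD (n = 3). The Hbegf points of knock-down cells (9.03 to 9.48) lie above all wild-type points (6.85 to 7.94), and Ereg forms 3 separate levels.

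Hbegf, read on probe set 10458340, encodes a ligand of EGFR and ERBB4. Its signal was 9.48, 9.17 and 9.03 in knock-down cells, against 7.94, 7.90 and 7.23 in treated wild-type cells. In resting wild-type cells it was 7.88, 7.91 and 6.85. The knock-down arrays were all above the wild-type arrays, with a gap of 1.09 to the nearest treated one, while the treated and resting wild-type arrays overlapped. Of all probe sets, 10.9% were higher without overlap in knock-down than in treated wild-type cells and 10.8% in knock-down than in resting ones.

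Group means were 9.23 ± 0.23 in knock-down, 7.69 ± 0.40 in treated wild-type and 7.54 ± 0.60 in resting wild-type cells (SD, n = 3 each). Hbegf was 2.90-fold higher in knock-down than in treated wild-type cells (log2 difference 1.54, 95% CI 0.87 to 2.21, adjusted p = 0.0163). Against resting wild-type cells the difference was 1.68, or 3.21-fold (95% CI 1.02 to 2.35, adjusted p = 0.00832). Paired by replicate number, the 3 differences between knock-down and wild type under TNF-α were 1.54, 1.27 and 1.80. One hour of TNF-α in wild-type cells gave a difference of 0.15 (95% CI -0.52 to 0.81, adjusted p = 0.922), an interval that leaves room for a fold of 1.76 upward and of 0.697 downward. Leaving out the first or second knock-down array took the call against treated wild-type cells away, with differences of 1.41 (adjusted p = 0.0699) and 1.57 (adjusted p = 0.0577), whereas the call against resting ones held in all 9 fits that left out 1 array. Without the third resting array the small difference between treated and resting wild-type cells turned to -0.20 (adjusted p = 0.738).

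Ereg, read on probe set 10523175, encodes epiregulin, a ligand of EGFR and ERBB4 that is produced in inflammation and ovulation. Its signal was 8.41, 8.18 and 8.06 in knock-down cells, against 9.04, 9.06 and 9.35 in treated wild-type cells. In resting wild-type cells it was 7.55, 7.44 and 5.97. The 3 groups did not overlap on any array, the third resting array lay well below the other two, and the knock-down arrays stood between treated and resting wild-type cells. Between treated and resting wild-type cells, 4.01% of all probe sets were higher without overlap and 6.18% lower, and 10% were lower in knock-down than in treated wild-type cells.

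The Ereg means were 8.22 ± 0.18 in knock-down, 9.15 ± 0.17 in treated wild-type and 6.99 ± 0.88 in resting wild-type cells (SD, n = 3 each). Treated minus resting wild-type cells gave 2.16, or 4.48-fold (95% CI 1.37 to 2.96, limma adjusted p = 0.0905). Knock-down minus treated wild-type cells gave -0.93 (95% CI -1.73 to -0.14, adjusted p = 0.197), a knock-down signal of 0.523 times the wild-type one. Knock-down minus resting wild-type cells gave 1.23, or 2.34-fold (95% CI 0.43 to 2.03, adjusted p = 0.0691). None of the 3 passed the threshold. By replicate number the knock-down differences under TNF-α were -0.63, -0.88 and -1.30.

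The calls of Ereg changed with the settings of the fit, among them whether the third resting array was kept. That array enters every comparison because the fit shares 1 estimate of spread among the groups. Without that array all 3 comparisons passed: 0.72 for knock-down against resting wild-type cells (adjusted p = 0.0157), -0.93 for knock-down against treated wild-type cells (adjusted p = 0.00345) and 1.66 for treated against resting wild-type cells (adjusted p = 0.00422). A fit of the 6 treated arrays alone gave the same knock-down difference with an adjusted p of 0.0147. With replicate number as a block, the difference between knock-down and resting wild-type cells also passed (limma adjusted p = 0.0474). It passed too when only probe sets at or above the median level were tested (adjusted p = 0.0401). The difference between treated and resting wild-type cells passed with that restriction (adjusted p = 0.0459) and with quantile normalization (adjusted p = 0.0463). Whether Ereg and Hbegf differ from each other in their response was not tested.

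The remaining ligands gave small differences that passed in no comparison. Nrg1, a neuregulin that binds ERBB3 and ERBB4, came nearest. Its signal was 6.51, 6.31 and 6.47 in knock-down cells, against 6.68, 6.64 and 7.03 in treated and 6.64, 6.64 and 6.72 in resting wild-type cells. All knock-down arrays lay under all wild-type arrays, by a gap of 0.13, as did 10% of all probe sets against treated and 12.6% against resting wild-type cells. The difference from treated wild-type cells was -0.35 (95% CI -0.60 to -0.11, adjusted p = 0.109) and that from resting ones -0.24 (adjusted p = 0.26). Egf, the founding ligand, read 4.47, 4.62 and 4.89 in knock-down cells, against 4.99, 5.09 and 4.84 in treated and 4.68, 4.85 and 4.89 in resting wild-type cells. These arrays overlapped, and the difference from treated wild-type cells was -0.31 (adjusted p = 0.197).

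Tgfa, a ligand of EGFR alone, ranged from 5.90 to 6.13 in knock-down cells, from 5.82 to 5.98 in treated wild-type cells and from 5.60 to 5.90 in resting wild-type cells. Its largest difference was 0.24, between knock-down and resting wild-type cells (adjusted p = 0.204). Btc, a ligand of EGFR and ERBB4, ranged from 3.85 to 4.50 in knock-down, from 4.30 to 4.57 in treated wild-type and from 4.08 to 4.30 in resting wild-type cells. Epgn, a weak ligand of EGFR, ranged from 3.01 to 3.09 in knock-down, from 2.84 to 3.09 in treated wild-type and from 3.01 to 3.14 in resting wild-type cells. Epgn stayed below the 95th percentile of the 1027 olfactory receptor genes on the array, and its values were not read as expression. Both dim probe sets returned identical values on several arrays, 4.30 on 3 arrays for Btc and 3.09 on 3 arrays for Epgn. The brighter Nrg1 probe set did so too, with 6.64 on the first and second resting and the second treated wild-type arrays. The gap given above for Nrg1 was measured from that repeated value. Intervals for the difference between knock-down and treated wild-type cells ran from -0.09 to 0.35 for Tgfa, from -0.59 to 0.10 for Btc and from -0.12 to 0.26 for Epgn.

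The receptor gene Egfr was read at 7.06, 6.44 and 7.06 in knock-down cells, against 7.02, 6.63 and 7.40 in treated and 6.996, 6.78 and 7.19 in resting wild-type cells. The second array was the lowest in all 3 groups, and the groups overlapped throughout. The difference between knock-down and treated wild-type cells was -0.17 (95% CI -0.67 to 0.33, adjusted p = 0.78). Treated minus resting wild-type cells gave 0.0285 (adjusted p = 0.986), and this sign turned to -0.028 when each array was centred on its median. The interval of the knock-down difference leaves room for folds between 0.63 and 1.26.

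**Figure D2:**
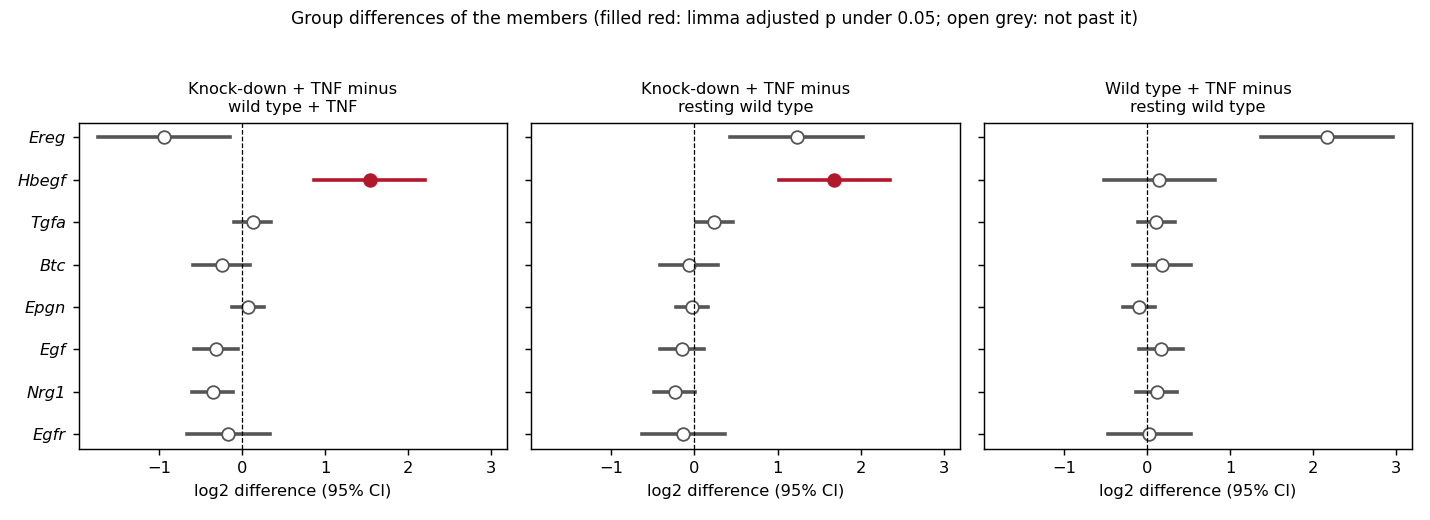
Log2 differences with 95% confidence intervals for the 8 measured genes (horizontal axis), in panels for knock-down minus treated wild type, knock-down minus resting wild type, and treated minus resting wild type. Filled red points passed an adjusted p of 0.05: Hbegf at 1.54 and 1.68. Ereg has the widest intervals and the highest point of the third panel, at 2.16.

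Of the other ErbB receptors and neuregulins (Erbb2, Erbb3, Erbb4, Nrg2, Nrg3 and Nrg4), 1 of 6 was called between knock-down and treated wild-type cells, beside 5.96% of all probe sets called (3.36% higher), and the median difference was 0.12. Nrg2, a neuregulin ligand of ERBB3 and ERBB4, read 5.34, 5.35 and 5.33 in knock-down cells, against 5.02, 4.95 and 5.17 in treated and 4.84, 4.81 and 4.79 in resting wild-type cells. The knock-down arrays lay above all wild-type arrays with a difference of 0.29 from treated wild-type cells (adjusted p = 0.0472). The block by replicate number ended this call (adjusted p = 0.0555), as did 8 of the 9 fits that left out 1 array (adjusted p up to 0.16). Against resting wild-type cells Nrg2 was higher by 0.53 (adjusted p = 0.00255). In the TNF-α comparison 0 of 6 were called by limma, with 3 at an unadjusted p under 0.05. Of all probe sets, 0.115% were called there and 7.1% lay under that p.

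Among the shedding enzymes and their iRhom regulators, 1 of 9 was called between knock-down and treated wild-type cells, beside 5.96% of all probe sets called (2.6% lower), and the median difference was -0.058. Adam12, a metalloprotease able to cut HB-EGF, was lower in knock-down cells (difference -0.38, adjusted p = 0.0467; up to 0.144 with 1 array left out, with the call kept in 1 of 9 fits). It read 6.31, 6.01 and 6.27 there, against 6.58, 6.56 and 6.58 in treated and 6.71, 6.64 and 6.53 in resting wild-type cells. Against resting wild-type cells Adam12 was also lower (-0.43, adjusted p = 0.0209), a call lost without the first (adjusted p = 0.0823) or the second resting array (adjusted p = 0.0657). Adam17 and Adam10, the principal sheddases, gave 0.13 (adjusted p = 0.437) and 0.26 (adjusted p = 0.223). Rhbdf1, which encodes iRhom1, a partner of ADAM17, was higher in knock-down than in resting wild-type cells (0.61, adjusted p = 0.00814); against treated wild-type cells it gave 0.36 (adjusted p = 0.0972), which passed with the replicate block (adjusted p = 0.0405). In the TNF-α comparison 0 of 9 were called, with 1 at an unadjusted p under 0.05, beside 0.115% and 7.1% of all probe sets.

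Components that relay the receptor signal were called in both directions. Of 14 measured genes out of 19 listed, the others not analysed here, 2 were higher and 3 lower in knock-down than in treated wild-type cells, beside 3.36% of all probe sets called higher and 2.6% lower, with a median difference of 0.10 beside -0.0154 for all probe sets. Nras, a RAS GTPase, was higher by 0.56 (adjusted p = 0.0017) and Akt1, a kinase downstream of PI3K, by 0.58 (adjusted p = 0.00309). Braf, a RAF kinase, was lower (difference -0.74, adjusted p = 0.009), as were Plcg1, encoding phospholipase Cγ1 (-0.58, adjusted p = 0.00432), and Pik3r1, the regulatory subunit of PI3K (-0.58, adjusted p = 0.0259). The calls of Nras, Akt1, Braf and Plcg1 held when each array was left out in turn, and that of Pik3r1 held in 5 of the 9 such fits. The replicate block kept these 5 calls and added Stat3, a transcription factor, as lower. Against resting wild-type cells Nras (0.41), Akt1 (0.39), Braf (-0.73) and Plcg1 (-0.74) were called in the same directions, beside 3.64% of all probe sets called higher and 4.62% lower. The Akt1 call was lost there without the first resting, the second knock-down or the third knock-down array (adjusted p up to 0.0594). In the TNF-α comparison of wild-type cells 0 of 14 were called, with 2 at an unadjusted p under 0.05. The shares of all probe sets were 0.115% and 7.1%.

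Calls among feedback inhibitors and receptor turnover genes were upward between knock-down and treated wild-type cells. Of 16 measured genes, 3 were higher and 0 lower, beside 3.36% of all probe sets called higher and 2.6% lower. An unadjusted p under 0.05, each time with a positive difference, was reached by 9 of the 16, beside 17.4% of all probe sets in either direction, and 12 lay above 0. The list's median difference was 0.37, beside -0.0154 for all probe sets. Spry4, a Sprouty inhibitor of ERK signalling, changed most: it read 6.38, 6.20 and 6.30 in knock-down cells, against 4.68, 4.33 and 4.51 in treated and 4.14, 4.54 and 3.94 in resting wild-type cells. No wild-type array came near the knock-down arrays, and Spry4 was 3.45-fold higher than in treated wild-type cells (difference 1.79, adjusted p = 0.000395), a call kept in all 9 fits that left out 1 array. Dusp4, a nuclear phosphatase of ERK, was higher by 1.18 (adjusted p = 0.0495) and Spred1, a Sprouty-related inhibitor of RAS signalling, by 0.42 (adjusted p = 0.0261); these calls held in 1 and 4 of the 9 such fits, with adjusted p up to 0.165 and 0.0934. Leaving out any knock-down array, or the first or second treated wild-type array, left Spry4 as the 1 call. Without the third resting array 7 of the 16 were called higher, now with Errfi1, Spred2, Dusp6 and Dusp5 as well, and with the replicate block 5 were (Lrig1, Spry4, Spred1, Spred2 and Dusp4). Of all 23410 probe sets, 893 were called higher without that array and 1156 with the block.

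Against resting wild-type cells, 5 of the 16 were higher and 1 lower, beside 3.64% and 4.62% of all probe sets. Errfi1, whose product Mig6 binds and inhibits EGFR directly, read 10.09, 9.89 and 9.99 in knock-down cells, against 9.42, 9.37 and 9.73 in treated and 8.76, 8.83 and 7.99 in resting wild-type cells. The groups formed 3 separate levels, and the difference between knock-down and resting cells was 1.46 (adjusted p = 0.00268). Spry4 (2.09, adjusted p = 0.000129), Spry2 (0.60, adjusted p = 0.0129), Spred1 (0.36, adjusted p = 0.0393) and Dusp5 (0.81, adjusted p = 0.0254) were also higher. Socs3, an inhibitor of cytokine receptors, was lower (-0.72, adjusted p = 0.0277). Without the first knock-down array 2 were called (Errfi1 and Spry4), and without the second or the third 3 were (Errfi1, Spry2 and Spry4). The Spred1 call held in 2 of the 9 fits that left out 1 array (adjusted p up to 0.119) and was lost with the replicate block (adjusted p = 0.0501), and that of Socs3 was also lost without the first treated wild-type array (adjusted p = 0.0508). Under TNF-α alone, in wild-type cells, 0 of 16 were called by limma, with 3 at an unadjusted p under 0.05. Beside these counts, 0.115% of all probe sets were called and 7.1% lay under that p. Errfi1 gave 0.98 in this comparison (adjusted p = 0.232).

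Among genes that ERK signalling is known to induce, the calls lay between knock-down and resting wild-type cells. These groups differ in both line and TNF-α treatment, which this comparison cannot tell apart. Of 13 measured, 7 were higher and 0 lower in knock-down than in resting wild-type cells, beside 3.64% of all probe sets called higher; the list's median difference was 1.10 and that of all probe sets -0.0103. Egr2, a zinc-finger transcription factor, was higher by 2.09 (adjusted p = 0.0145), Ier3, an immediate-early survival gene, by 1.80 (adjusted p = 0.00525), Fosl1, an AP-1 subunit, by 1.45 (adjusted p = 0.0223) and Egr1 by 1.33 (adjusted p = 0.00343). Phlda1 (1.31), Plaur, the urokinase receptor (1.12), and Ier2 (0.90) completed the 7. Leaving out 1 array gave between 4 and 8 calls, with 4 (Egr1, Ier2, Ier3 and Phlda1) without the first or the third knock-down array.

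Between knock-down and treated wild-type cells limma called 0 of these 13, with 4 at an unadjusted p under 0.05 beside 17.4% of all probe sets, and without the third resting array 4 were called higher (Fosl1, Phlda1, Etv5 and Plaur). The replicate block called 1 there, Etv5, higher. A fit of the 6 treated arrays alone called 3 of the 13 higher. These were Fosl1 (limma adjusted p = 0.00938), Phlda1 (0.00653) and Plaur (0.00814). Of all 23410 probe sets, 591 were called higher in that fit, 893 without the third resting array and 1156 with the block. Between treated and resting wild-type cells 0 of 13 were called, beside 0.115% of all probe sets, with 9 at an unadjusted p under 0.05, beside 7.1%. The nearest there were Ier3 (1.81, adjusted p = 0.0841), Egr2 (2.41, adjusted p = 0.116) and Egr1 (1.12, adjusted p = 0.116); Ier3 and Egr2 passed with the replicate block (adjusted p = 0.00167 and 0.0209). The third resting array was the lowest of the resting arrays for 11 of the 13 genes and for 11 of the 16 feedback genes, beside 33% of all probe sets. Of the 8 measured members it was the lowest for 2, Ereg and Hbegf. Its deviation from the other 2 resting arrays had a median of -0.89 over the ERK target genes and -0.39 over the feedback genes. That median was 0.0926 over the members and 0.0159 over all probe sets.

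**Figure D3:**
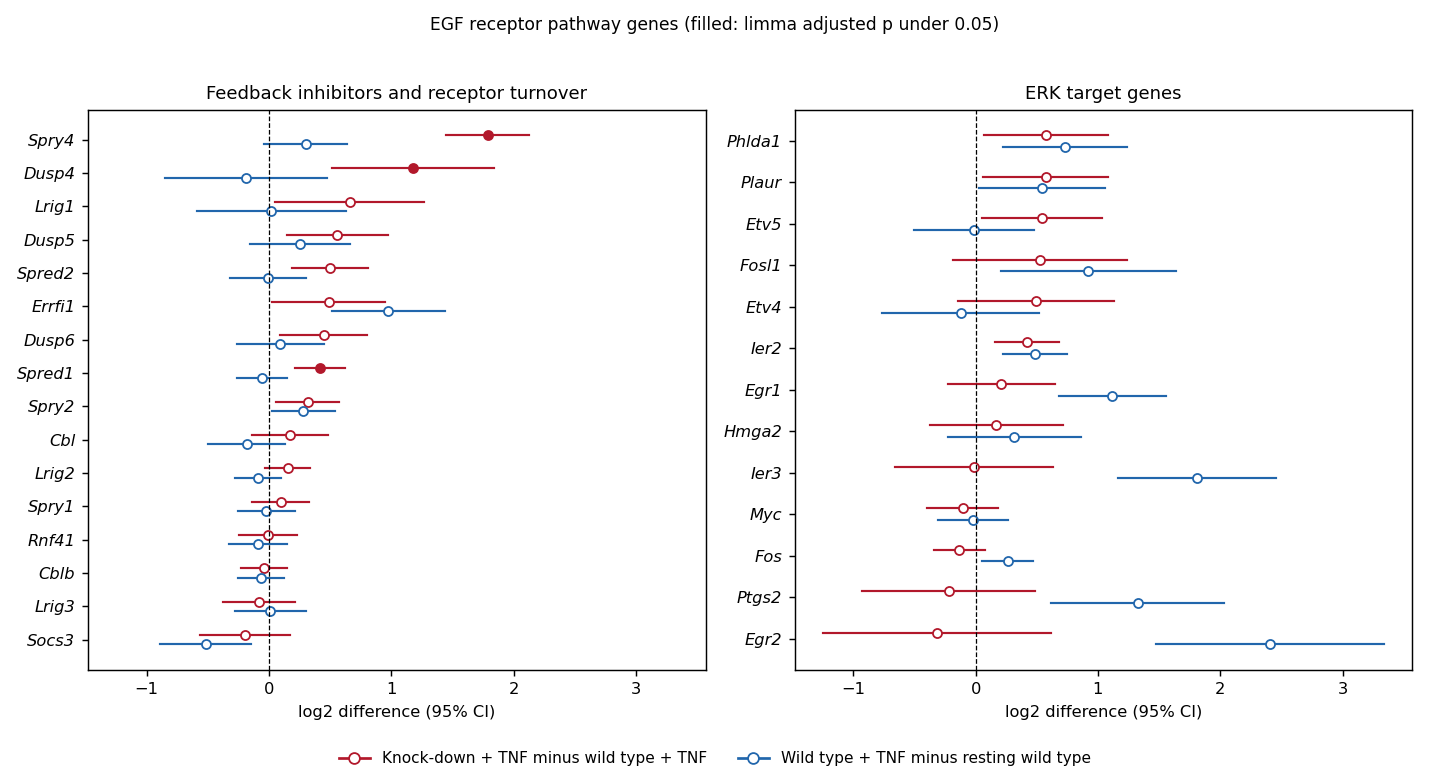
Log2 differences with 95% confidence intervals (horizontal axis) for 16 feedback and receptor turnover genes and 13 ERK target genes, ordered by the knock-down difference. Red is knock-down minus treated wild type, blue is treated minus resting wild type, and filled points passed an adjusted p of 0.05. Spry4, Dusp4 and Spred1 are the filled points; the ERK target genes lie to the right of 0 in blue for 10 of 13.

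The genes whose patterns were most like those of Hbegf and Ereg, the members with the widest span of group means, were taken from 1399 probe sets of 1 gene with group means spanning at least 0.5 and an average level at or above the median. Over the 9 arrays, which share their groups, Hbegf ran closest with Ttc9 (r = 0.994), the basement membrane collagen gene Col4a1 (r = 0.987) and Rai14 (r = 0.986). All 3 were called higher in knock-down than in treated wild-type cells, by 0.88 (adjusted p = 0.0447), 0.52 (adjusted p = 0.0168) and 0.77 (adjusted p = 0.0252). Ereg ran closest with Hk2, which encodes hexokinase 2 (r = 0.955), Ptgs2, the inducible cyclooxygenase gene (r = 0.952), and Nfkbiz, an atypical IκB gene (r = 0.931). Nfkbiz was higher in treated than in resting wild-type cells by 0.96 (adjusted p = 0.0161). These genes were picked by their correlation on the same arrays, so their calls follow largely from that choice and are no separate evidence. Between Ereg and Hbegf themselves r was 0.261.

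Hbegf was also set beside its chromosomal neighbours. The neighbours were the 10 nearest measured genes on each side in gene order, 20 for each member. On chromosome 18, 2 of these 20 were higher (Cxxc5 and Nrg2) and 0 lower in knock-down than in treated wild-type cells. Their median difference was -0.0107. Around Ereg, 1 of the 20 neighbours was higher and 2 were lower in that comparison (Cxcl5, Ppbp and Thap6). The median there was -0.11 and the lowest difference -3.47. Over all probe sets, 3.36% were called higher and 2.6% lower in that comparison. Between treated and resting wild-type cells 2 of those 20 were called, both higher, and both were chemokine genes of the adjoining cluster, Cxcl5 and Cxcl1. Of all probe sets, 0.115% were called between these wild-type groups. These neighbours were chosen after values had been seen, and gene order follows RefSeq.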

How the data were processed

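RNA from 9 cultures was hybridised to Affymetrix Mouse Gene 1.0 ST arrays. The authors deposited log2 values, background-corrected, normalised and summarised per probe set by RMA, for which the sources used here give no version. Probe sets were named through the platform annotation (21789 with 1 symbol, 1621 with several, 12147 unnamed here of 35557), and the 23410 named ones were tested without rescaling or a filter on low signal. Groups were compared with limma 3.58.1 in R 4.3.3, 1 fit of all 9 arrays with no covariate, adjusted by Benjamini-Hochberg at 0.05; the fit was first tested on simulated data. Arrays of the same replicate number deviated together between knock-down and treated wild-type cells (r = 0.147 to 0.465 over probe sets) and between treated and resting wild-type cells (r = 0.11 to 0.403), but not in every pair between knock-down and resting wild-type cells (r = 0.0022 to 0.221). With replicate number as a block the calls numbered 2108 in place of 1395 in the first of these comparisons and 55 in place of 27 in the second. Centring each array on its median changed the split of the first from 56.3% to 68% higher. Number of arrays, 3 per group, limits the precision. Named genes are the members, Med17, list genes called in any comparison and, for the members with the widest span of group means (Ereg and Hbegf), the 3 genes of highest correlation; a few others were named after their values were seen. The members, lists and tests were chosen with earlier results of these data known. The alternatives were fits of the 6 arrays compared, of all probe sets or of the brighter ones, centring, quantile normalization, an intensity trend, the replicate block, each array left out, and the methods' reproducibility filter.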

Additional observations from a re-analysis of the deposited data

How the results depend on the processing

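The direction of each Ereg and Hbegf difference was kept under every alternative, apart from Hbegf between treated and resting wild-type cells. Members called between knock-down and treated wild-type cells numbered 1 (Hbegf), 2 (Ereg and Hbegf) in the fit of the 6 arrays compared and 3 (Ereg, Hbegf and Nrg1) under the methods' reproducibility filter; leaving out 1 array gave 0 to 2. Between knock-down and resting wild-type cells there was 1, and 2 (Ereg and Hbegf) with the brighter probe sets only or with the replicate block; leaving out 1 array gave 1 to 2. Between treated and resting wild-type cells there was 0, and 1 (Ereg) with the brighter probe sets only, with quantile normalization and under the reproducibility filter; leaving out 1 array gave 0 to 1. The replicate block changed no other call among the members, and none of them had a dimmer probe set to try. The reproducibility filter asks for an unadjusted limma p under 0.1 and a small SD of the tested arrays relative to the difference. It makes no adjustment for the number of probe sets, and the share of all probe sets passing it was not counted. The brighter probe sets leave out Btc, Epgn and Egf.

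Signs turned only for differences that were not called. Centring gave -0.028 for Egfr and -0.0508 for Braf (treated minus resting wild type) and 0.0407 for Ier3 (knock-down minus treated wild type); quantile normalization gave 0.0049 for Adam12 and 0.0081 for Spred1 (treated minus resting wild type). Leaving out 1 array, treated minus resting wild type ranged from -0.20 to 0.38 for Hbegf, -0.16 to 0.22 for Egfr, -0.0078 to 0.19 for Nrg1, -0.0518 to 0.0982 for Braf, -0.13 to 0.0189 for Spred1 and -0.39 to 0.0997 for Dusp4. Knock-down minus treated wild type ranged from -0.36 to 0.0421 for Egfr, -0.0125 to 0.12 for Epgn, -0.28 to 0.12 for Ier3 and -0.67 to 0.24 for Egr2. Knock-down minus resting wild type ranged from -0.24 to 0.0705 for Egfr, -0.0709 to 0.001 for Epgn and -0.23 to 0.0939 for Btc. The cause was not tested.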
